A study of Mus musculus with 23 samples.

Results

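Integrins are the adhesion receptors with which leukocytes hold on to vessel walls, matrix and other cells. The 9 genes described here encode leukocyte integrin chains, 6 alpha chains (Itgal, Itgam, Itga1, Itga2, Itga4 and Itgae) and 3 beta chains (Itgb1, Itgb2 and Itgb7). They were picked by name from the 19945 genes of the expression table, and all 9 passed the filter on low values that left 15268 genes for testing. The 23 RNA libraries come from mouse cells labelled ILC2s, the lymphocytes without antigen receptors that make type 2 cytokines. The baseline group (n = 5) was taken directly from culture. The other 3 groups (n = 6 each) are cells given intravenously to mice with a stroke model (MCAO, occlusion of the middle cerebral artery) 6 hours after the occlusion and collected from blood on day 1, from blood on day 5, or from brain on day 5.

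Every group shares the same source of cells. Donors were male mice of 8 to 10 weeks with the genotype label B6.Cg-Tg(CAG-GFP)Smoc, described as transgenic and wild-type together, so a GFP transgene under the broadly active CAG promoter was carried by at least some donors. For 7 days the donors received IL-33 at intervals of 2 days. From spleen and bone marrow, CD25+ cells were then isolated magnetically after depletion of cells with Ter119, CD45R/B220, CD3ε, Gr1 or CD11b. They were grown for 14 days with the cytokines IL-2, IL-7 and IL-15 together with IL-33, then sorted as CD45+Lin-ST2+KLRG1+CD127+. CD11b, the product of Itgam, was therefore one of the antigens depleted before culture. The sources used here do not say how cells were purified on recovery from blood or brain or whether replicates are separate animals, so p-values measure only the spread between these libraries.

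An integrin is a pair of one alpha and one beta chain, and the alpha chain largely sets the ligand. Itgb2 encodes the leukocyte-restricted beta chain, which pairs with the Itgal product to form LFA-1, a receptor for ICAM molecules on endothelium, and with the Itgam product (CD11b) to form Mac-1, a receptor for ICAM-1, fibrinogen and complement on myeloid and NK cells. Itgb7 pairs with the Itga4 product to form the gut-homing receptor for MAdCAM-1, and with the Itgae product (CD103) to form a receptor for E-cadherin. Itgb1 pairs with many alpha chains, among them the collagen receptors encoded by Itga1 (CD49a) and Itga2 (CD49b), and the Itga4 product, with which it makes VLA-4, a receptor for VCAM-1. Integrins on circulating cells are mostly inactive until talin and kindlin bind the beta chain tail, and VLA-4 and LFA-1 are known for the arrest of leukocytes on inflamed brain vessels.

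In mm10 with the GENCODE M21 annotation, Itgal lies at chr7:127296260-127335138 and Itgam, on the same strand, at chr7:128062640-128118491. Itga2 (chr13:114833081-114932100) and Itga1 (chr13:114953096-115101964) are neighbours, 20995 bases apart on the minus strand. The others are single: Itga4 at chr2:79255426-79333123, Itgae at chr11:73090583-73147446, Itgb1 at chr8:128685654-128733200, Itgb2 at chr10:77530252-77565708 and Itgb7 at chr15:102215995-102231944. An annotated gene on the same strand, Gm49368, shares 3450 exon bases with Itgam, 68.7% of the Itgam exon sequence. Cerkl, on the other strand, shares 8.04% of the Itga4 exon bases, and Gm49395, on the same strand, 3.68% of those of Itga1. Since the sources used here do not give the counting rule or its strand setting, the Itgam and Itga4 counts are uncertain to that extent.

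The libraries hold 11.6 M to 16.9 M gene reads (M, 1e6) in batch 1 (12 libraries, replicates 1 to 3) and 27.8 M to 58.1 M in batch 2 (11 libraries, replicates 4 to 6). The batches are those named in the labels, and each holds all 4 groups. Markers of the labelled cell type were uneven. In the baseline, Klrg1, the KLRG1 sort marker, ran from 15664 to 50175 normalized counts, but Il1rl1 (ST2) had a mean of 1.08 and Il7r (CD127) one of 24.5, and Cd3e was at 4847 to 19429. In brain, Klrg1 was at 1.87 to 23.4, Cd3e at 0 to 16.4 and the NK cell receptor gene Ncr1 at 0 to 7.65, while microglia markers made up 0.440 to 1.22% and choroid plexus markers 1.33 to 7.74% of the normalized total. Blood libraries held platelet markers at 0.139 to 5.33%, against 3.08e-04 to 0.0286% in the baseline. Baseline replicate 5, blood day 1 replicates 2 and 6 and brain replicate 2 stood apart from their groups. With these 4 left out, the number of members called in each comparison stayed within 1.5 times that with all libraries. Some libraries were close to each other by the chi-square of their reads per degree of freedom. In the baseline, pairs of replicates 1, 2 and 3 gave 4.19 to 12.5 and the remaining pairs 875 to 1300.2. For brain the pair of replicates 1 and 3 gave 10.1, the rest 348 to 786. These differences exceed sampling noise and the libraries are counted singly, but the 5 baseline and 6 brain libraries may overcount independent samples. With each close set averaged and counted once, Itga1 lost its calls on blood day 5 against baseline and in brain against blood day 1 (limma, adjusted p = 0.0892 and 0.0783), and the other calls of members held. In such bulk samples, fewer cells of a type and less RNA per cell cannot be told apart.

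From culture to blood, 4 alpha chains were called and none of the beta chains. On day 1, Itgam, Itga4 and Itgae rose and Itga1 fell, 3 and 1 of 9, where 32.1% of all tested genes were called, 18.1% rising and 14.0% falling. On day 5 the same 4 genes were called in the same directions, against 31.1% of all genes called, 19.6% rising and 11.4% falling. The 4 called genes had no overlap between groups on either day, against 17.1% of all genes on day 1 and 24.7% on day 5. The 2 comparisons share the 5 baseline libraries. The members' median log2 difference was 0.58 on day 1 and 0.26 on day 5, where the median of all tested genes was 0.04 and 0.14. All differences are limma log2 differences of normalized count + 1 with batch in the model, and p-values are adjusted by the Benjamini-Hochberg method over all genes tested.

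Between the 2 blood days no member was called, by limma, edgeR or DESeq2. The smallest unadjusted limma p was 0.184, so none was under 0.05. Of all genes, 0.105% were called from day 1 to day 5, 0.0982% rising and 0.00655% falling. Itgam alone had groups that did not overlap, which held for 1.12% of all genes.

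In brain, Itgal, Itgb7, Itgb2 and Itga2 were far below their level in culture and in blood, and most members were lower than in blood. Against baseline 5 members fell (Itgal, Itgb7, Itgb2, Itga2 and Itgb1) and 2 rose (Itgam and Itga4), where 49.2% of all genes were called, 11.7% falling and 37.5% rising. Against blood day 5, 7 fell and none rose, with 47.9% of all genes called, 14.3% falling and 33.6% rising. Against blood day 1, 8 fell and Itga1 rose, with 51.4% of all genes called, 14.1% falling and 37.3% rising. The members' median log2 difference was -1.77 against baseline, -4.41 against blood day 5 and -3.47 against blood day 1, where the median over all genes was 0.67, 0.47 and 0.77. In each of these 3 comparisons, 6 members had groups that did not overlap, against 35.6%, 35.4% and 29.3% of all genes. They share the 6 brain libraries. The largest falls were those of Itgal and Itgb7. Calls in brain for Itgb1, for Itga1 against blood day 1 and for Itga4 against baseline were lost without single libraries, and those for Itgam differed between the batches.

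**Figure D1:**
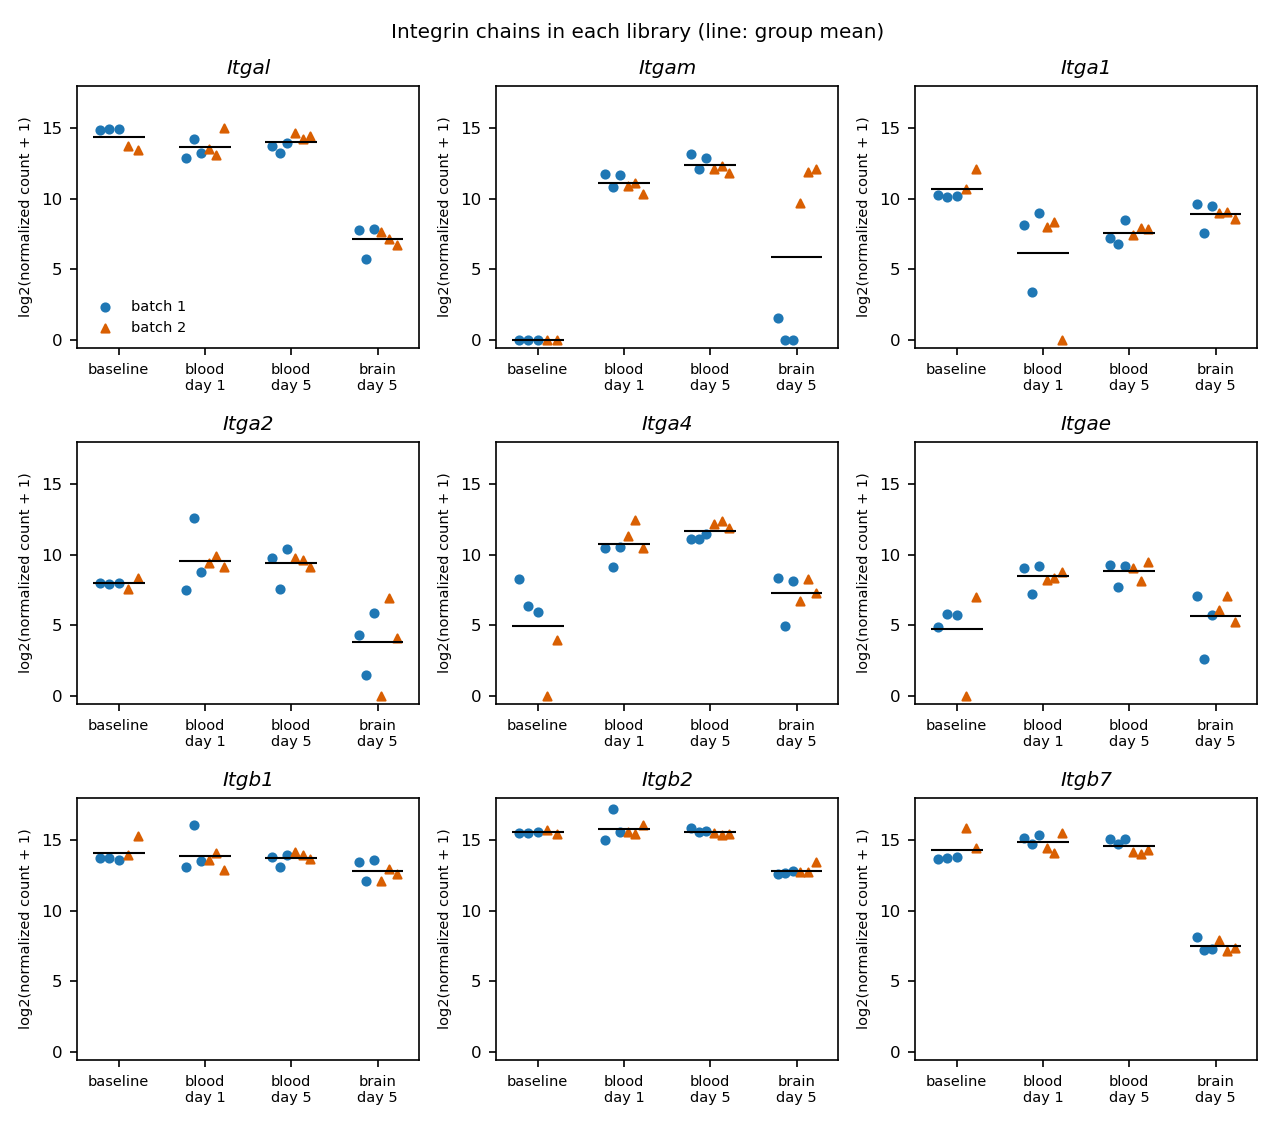
Level of each integrin chain in every library, as log2(normalized count + 1) on the y axis, by group on the x axis; circles are batch 1, triangles batch 2 and the line is the group mean. Itgal and Itgb7 are low in all 6 brain libraries, and Itgam is at 0 in all 5 baseline libraries and near 0 in the 3 brain libraries of batch 1.

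The beta chains were the abundant members. Per kilobase of exon sequence, the mean normalized count in the baseline was 15896 for Itgb2, 8975 for Itgb7, 4715 for Itgb1 and 3598 for Itgal. The other 5 alpha chains had at most 103, that of Itga1. In brain the order was Itgb2 at 2434, Itgb1 at 1911 and Itgam at 304, with Itgb7 at 67.7 and Itgal at 23.9.

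Itgb2, the shared chain of LFA-1 and Mac-1, overlapped between culture and blood and fell in brain. The 5 baseline libraries had 47642, 45852, 50197, 53920.4 and 44964 normalized counts. The lowest, median and highest values were 32663, 48853 and 149676 in blood on day 1 and 43023, 48978 and 59818 on day 5. The baseline and both blood groups overlapped, and the highest value was that of blood day 1 replicate 2, without which the day 1 mean was 48636. In brain the values were 6256, 6493, 7151, 6893, 6714 and 11064, all below every library of the other groups and even apart from replicate 6. The log2 difference of brain was -2.73 ± 0.27 (adjusted p = 1.51e-08) against baseline, -2.75 ± 0.26 (adjusted p = 6.64e-09) against blood day 5 and -2.98 ± 0.26 (adjusted p = 1.90e-09) against blood day 1 by limma. Blood differed from baseline by 0.25 ± 0.27 (adjusted p = 0.53) on day 1 and 0.02 ± 0.27 (adjusted p = 0.988) on day 5, neither of which was called. Among the 3 beta chains its share of the summed per-kilobase level was 56.5 ± 12.7% (SD, n = 5) in the baseline and 56.2 ± 12.2% (SD, n = 6) in brain.

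Itgb7, the chain of the gut-homing and CD103 integrins, had the largest falls in brain beside Itgal. Baseline libraries had 13155, 14020.2, 14088, 61106 and 21932. Blood had a lowest, median and highest value of 17104, 31949.7 and 46908 on day 1 and 16631, 23570.3 and 35526 on day 5. Baseline replicate 4 exceeded every blood library, while baseline replicates 1 to 3 lay below all 12 of them. Brain libraries had 276, 145, 155, 246, 139 and 164, with no overlap with any other group. By limma the log2 difference was -6.80 ± 0.37 (adjusted p = 5.28e-13) against baseline, -7.06 ± 0.35 (adjusted p = 1.25e-13) against blood day 5 and -7.38 ± 0.35 (adjusted p = 6.32e-14) against blood day 1. The differences between blood and baseline, 0.58 ± 0.37 (adjusted p = 0.241) on day 1 and 0.26 ± 0.37 (adjusted p = 0.664) on day 5, were not called. They went in opposite directions in the 2 batches, at 1.35 in batch 1 and -0.48 in batch 2 on day 1, and 1.22 and -0.99 on day 5. Without baseline replicate 4 the day 1 difference was 1.04 with an adjusted limma p of 0.0102.

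Itgb1, the broadly expressed beta chain, was lower in brain by the smallest called differences. Baseline libraries had 13534, 13556, 12466, 16147 and 40504, where replicate 5 was the high one. The lowest, median and highest values were 7402, 12279 and 69677 in blood on day 1 and 8666, 14967 and 18499 on day 5. The highest day 1 value was that of replicate 2, and without it the mean was 11650.2. In brain the values were 11248, 4446, 12326, 4487, 8103 and 6195, below all 5 baseline libraries. Replicates 2, 4 and 6 were also below every blood library, and the other 3 lay within the range of blood. By limma the log2 difference was -1.25 ± 0.46 (adjusted p = 0.0264) against baseline and -1.07 ± 0.43 (adjusted p = 0.0441) against blood day 1, both called, and -0.96 ± 0.43 (adjusted p = 0.0747) against blood day 5, not called. The call against baseline was lost without baseline replicate 5 (-0.89, adjusted p = 0.118) and without brain replicate 2 or 4 (0.0632 and 0.0605), in batch 1 alone (-0.63, adjusted p = 0.509), and with the replicate number as a block (-1.17, adjusted p = 0.0508). The call against blood day 1 was lost without any one of blood day 1 replicates 2, 4 and 5 or brain replicates 2, 4, 5 and 6 (adjusted p from 0.0514 to 0.135) and in 6 of 14 alternatives, the block (0.054) among them. The difference from blood day 5 passed the threshold without brain replicate 3 (-1.12, adjusted p = 0.0487).

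Itgal, the alpha chain of LFA-1, was the dominant alpha chain in culture and was low in brain. Its baseline values were 30306, 31019, 32129, 13585 and 11125, with the 3 libraries of batch 1 above the pair of batch 2. The lowest, median and highest values in blood were 7714, 10765 and 33552 on day 1 and 9859, 17412 and 25727 on day 5, both overlapping the baseline. In brain the values were 220.4, 52.8, 226, 202, 140.3 and 101, all far under the lowest library elsewhere. The limma log2 difference of brain was -7.25 ± 0.43 (adjusted p = 2.41e-12) against baseline, -6.90 ± 0.41 (adjusted p = 2.31e-12) against blood day 5 and -6.54 ± 0.41 (adjusted p = 5.86e-12) against blood day 1. Against baseline, blood differed by -0.72 ± 0.43 (adjusted p = 0.211) on day 1 and -0.35 ± 0.43 (adjusted p = 0.601) on day 5, not called, with -1.48 and -1.27 in batch 1 and 0.32 and 0.85 in batch 2. Itgal made up 94.4 ± 5.72% (SD, n = 5) of the summed per-kilobase level of the 6 alpha chains in the baseline, 66.9 ± 13.2% and 61.8 ± 10.3% in blood on days 1 and 5, and 18.2 ± 14.9% in brain (SD, n = 6 each).

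**Figure D2:**
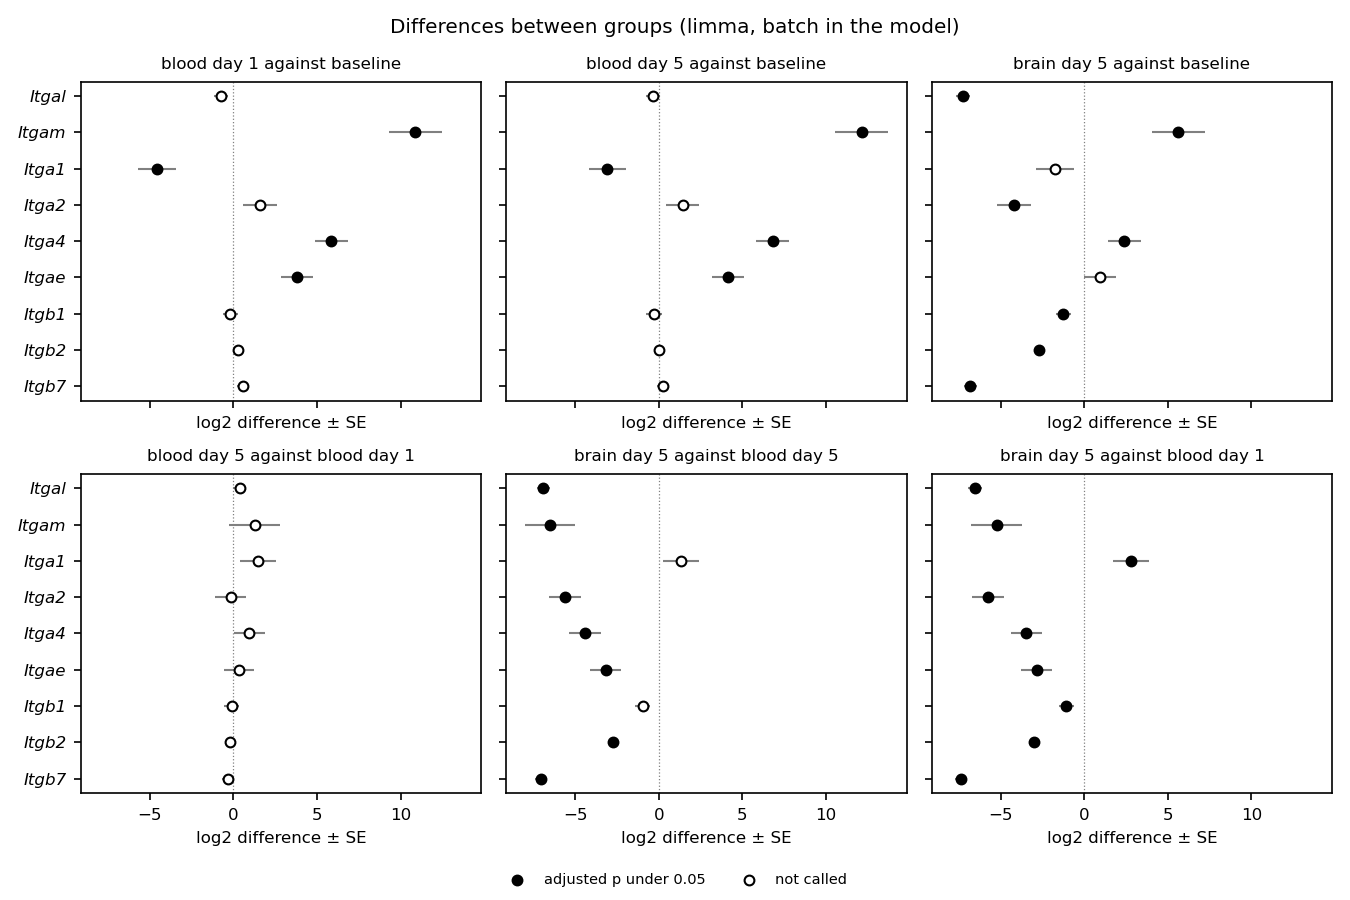
Log2 difference of each integrin chain (x axis, with its standard error) in the 6 comparisons; filled points passed an adjusted p of 0.05 in limma and open points did not. Itgal and Itgb7 lie beyond -6 in all 3 comparisons of brain, and no point of blood day 5 against blood day 1 is filled.

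Itgam and Itga4 were the members that went from little or no RNA in culture to abundant RNA in blood. The 250 bases upstream of their RefSeq starts (GRCm38.p6, 5′ to 3′ on the gene's strand) are shown because both rose. That of Itgb7, which was not called between culture and blood, is given for comparison. No RefSeq window was matched for Itgae, which rose in blood as well. Itgam is at chr7:128062390-128062639 on the plus strand, Itga4 at chr2:79255176-79255425 on the plus strand and Itgb7 at chr15:102231936-102232185 on the minus strand. Capitals mark GGAAG or its reverse complement CTTCC, the core bound by ETS factors, and TGTGGT or ACCACA, the site of RUNX factors.
Itgam: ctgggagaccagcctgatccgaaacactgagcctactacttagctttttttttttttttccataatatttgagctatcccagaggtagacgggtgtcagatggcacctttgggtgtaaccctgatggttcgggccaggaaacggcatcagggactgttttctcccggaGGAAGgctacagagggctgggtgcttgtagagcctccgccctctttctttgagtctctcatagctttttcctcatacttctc
Itga4: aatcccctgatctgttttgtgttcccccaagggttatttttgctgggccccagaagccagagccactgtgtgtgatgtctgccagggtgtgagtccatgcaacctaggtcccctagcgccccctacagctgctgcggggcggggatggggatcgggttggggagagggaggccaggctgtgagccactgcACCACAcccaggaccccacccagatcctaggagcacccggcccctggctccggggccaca
Itgb7: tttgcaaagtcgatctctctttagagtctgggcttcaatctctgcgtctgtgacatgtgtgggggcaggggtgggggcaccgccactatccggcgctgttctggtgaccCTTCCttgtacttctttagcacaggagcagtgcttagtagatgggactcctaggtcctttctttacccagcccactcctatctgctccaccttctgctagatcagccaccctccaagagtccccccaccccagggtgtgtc
Itgam holds one GGAAG, 82 bases before the start, Itgb7 one CTTCC, 141 bases before it, and Itga4 one ACCACA, 60 bases before it. GGAAG in either orientation occurs in 64.1% and TGTGGT in 14.0% of the 32851 RefSeq windows of this length, so a match is no more than a description of these letters. The letters AGATAA, the GATA factor site, were not found in these 3 windows in either orientation, where 9.99% of all windows hold them. RefSeq windows were matched for 6 of the 9 members.

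Itgam, which encodes CD11b, had no read in any baseline library. Its lowest, median and highest values were 1304, 2092 and 3397 in blood on day 1 and 3575, 4725 and 9063 on day 5. All day 5 values were above all day 1 values, but this difference was 1.28 ± 1.51 (adjusted p = 0.828) and not called. Taking a floor of 3 reads per baseline library, the mean was at least 582-fold higher in blood on day 1 (539-fold in batch 1 and 861-fold in batch 2) and at least 1416-fold higher on day 5 (1335-fold in batch 1 and 2041-fold in batch 2). The limma adjusted p was 1.19e-05 and 2.54e-06. Several other cell types had higher marker levels in these libraries too. On days 1 and 5, 7 and 7 of 8 neutrophil, 7 and 7 of 7 dendritic cell and 6 and 7 of 7 B cell markers rose from the baseline, and 4 and 4 of 6 monocyte and macrophage markers. Of all genes 18.1% and 19.6% rose. On day 1, 1 neutrophil marker fell. Of 6 oligodendrocyte markers 6 and 5 rose on days 1 and 5, and of 8 microglia markers 3 and 4. Of 9 T cell markers 4 rose on each day, and 2 and 3 fell. The median summed share of T cell markers was 0.349% in the baseline, 0.193% on day 1 and 0.175% on day 5. Neutrophil markers summed to 0.00408 to 0.0265% of the normalized total in the baseline, 0.064 to 0.557% on day 1 and 0.244 to 2.87% on day 5, and dendritic cell markers to 0.00228 to 0.0267%, 0.311 to 1.44% and 0.758 to 1.99%. B cell markers summed to 1.41e-04 to 0.0125%, 0.0457 to 0.293% and 0.208 to 0.464%. Ncr1 went from at most 12.2 normalized counts in the baseline to 10260.3 or more on day 1 and 8646 or more on day 5, and the mean of Csf1r from 214 to 5102 and 7109.8. The summed share of NK cell markers, Ncr1 among them, was lower in blood. Its median was 7.92% in the baseline, 0.792% on day 1 and 0.773% on day 5. Of these 8 markers, 5 rose and 2 fell on each day. The part of these cells in the blood values of Itgam, Itga4 and Itgae was not tested. The floor of 3 reads allows for counting error alone, as reads copied in PCR are not separate molecules.

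In brain, Itgam split by batch. The 3 batch 1 libraries had 1.87, 0 and 0 normalized counts, 1 read in all, and the 3 batch 2 libraries had 822, 3841 and 4501. The limma log2 difference over both batches was 5.63 ± 1.59 (adjusted p = 0.00484) against baseline, but it was 0.51 in batch 1 and 11.24 in batch 2, where the mean was at least 1438-fold higher. Against blood day 5 it was -6.52 ± 1.51 (adjusted p = 9.31e-04) over both, -12.21 in batch 1 and -0.82 in batch 2. Against blood day 1 it was -5.24 ± 1.51 (adjusted p = 0.00571) over both, -10.92 in batch 1 and 0.44 in batch 2. The batches differed in all 3 brain comparisons by the test of the interaction itself (adjusted p = 7.01e-06, 8.83e-07 and 7.20e-07 in limma). By edgeR neither fall from blood was called (adjusted p = 0.122 from day 5 and 0.392 from day 1), and by DESeq2 neither was (0.0887 and 0.433).

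The myeloid transcripts Csf1r and Cx3cr1 and the partner chain Itgb2 overlapped between the batches in brain. Csf1r, the receptor of microglia and macrophages for their growth factor, was at 36104, 21444 and 38246 in the batch 1 brain libraries and at 27411, 94684 and 104040.0 in those of batch 2. Cx3cr1, the fractalkine receptor of microglia, ran from 9058 to 27807 over all 6. Itgb2 was at 6256 to 7151 in batch 1 and 6714 to 11064 in batch 2. Of the batch 2 libraries, replicate 4 had Itgb2 and Csf1r near the batch 1 levels, while replicates 5 and 6 had more Csf1r. The part of myeloid cells in the Itgam split was not tested. P2ry12, a microglia receptor, was higher in batch 2, with the 3 libraries at 6900.2, 12717 and 19355 against 1599, 3354 and 1635 in batch 1. Markers of mast cells and basophils were split as well, at 3.27e-04 to 0.00149% of the normalized total in batch 1 and 0.0131 to 0.0253% in batch 2, and their part in the result was not tested.

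**Figure D3:**
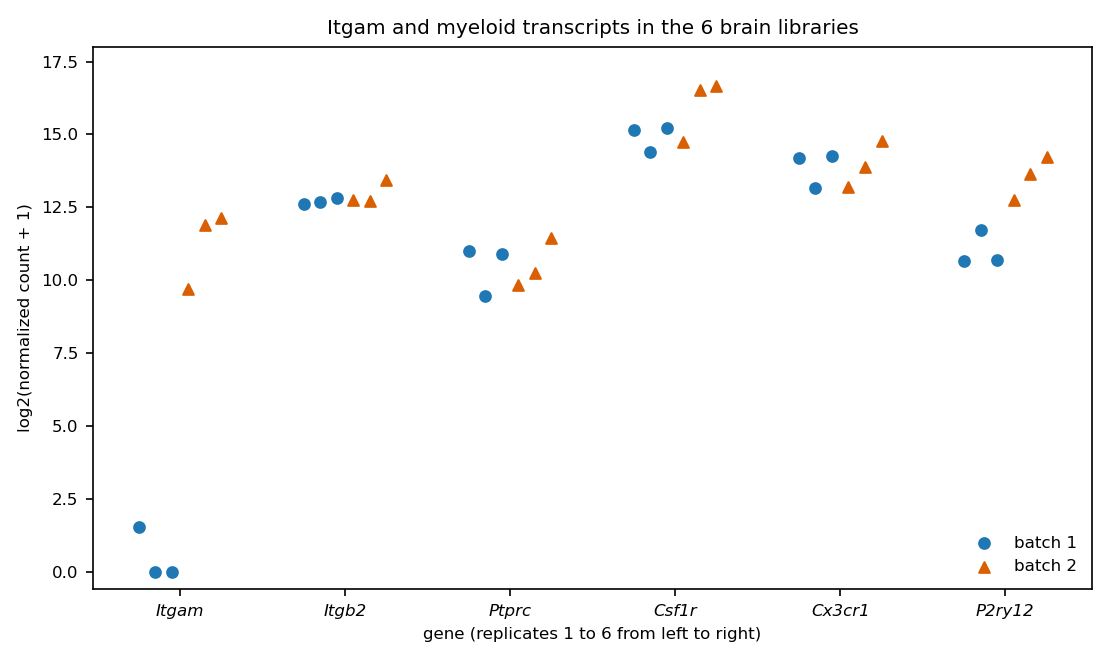
Itgam, its partner chain Itgb2, the pan-leukocyte gene Ptprc and the myeloid genes Csf1r, Cx3cr1 and P2ry12 in the 6 brain libraries, as log2(normalized count + 1), replicates 1 to 6 from left to right; circles are batch 1 and triangles batch 2. The 3 batch 1 libraries have at most 1 Itgam read, with Csf1r at 36104, 21444 and 38246. Those of batch 2 have Itgam at 822, 3841 and 4501 and Csf1r at 27411, 94684 and 104040.

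Itga4, the alpha chain of VLA-4, had a 23.4-fold higher mean in blood on day 1 than in culture. Baseline libraries had 316, 80.4, 59.4, 0 and 14.8, with replicate 1 the highest and replicate 4 without a read. The lowest, median and highest values were 557, 1471 and 5719 in blood on day 1 and 2179, 3267 and 5436 on day 5, all above the baseline. By limma the log2 difference was 5.87 ± 0.98 (adjusted p = 6.41e-05) on day 1 and 6.81 ± 0.98 (adjusted p = 9.55e-06) on day 5. It was larger in batch 2, at 9.44 against 3.20 on day 1 and 10.16 against 4.37 on day 5, where the interaction passed the threshold (adjusted p = 0.0110 and 0.0187), and the batch 2 baseline is the 2 libraries with 0 and 14.8.

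Brain had Itga4 at 327, 29, 284, 102, 309 and 151, below every blood library and overlapping the baseline. It fell by 4.41 ± 0.93 (adjusted p = 3.83e-04) from blood day 5 and by 3.47 ± 0.93 (adjusted p = 0.0034) from blood day 1 on the log2 scale in limma. Against baseline the difference was 2.40 ± 0.98 (adjusted p = 0.0475), at 0.28 in batch 1 and 5.41 in batch 2. That call was lost by edgeR (0.58, adjusted p = 0.617) and DESeq2 (1.05, adjusted p = 0.304), with the replicate block (0.0536) and in 6 more of 14 alternatives, and without any one of baseline replicates 4 and 5 or brain replicates 1, 3, 4, 5 and 6 (adjusted p from 0.0577 to 0.259).

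Itgae, which encodes CD103, a chain known for tissue-resident lymphocytes, was low in culture and in brain and higher in blood. Baseline libraries had 28.9, 54.8, 52.8, 0 and 128, where replicate 4 had no read. Its lowest, median and highest values were 149, 382 and 600.5 in blood on day 1, 211, 557 and 719.8 on day 5 and 5.11, 59.2 and 136 in brain. Blood overlapped neither group, and brain overlapped the baseline. By limma it rose by 3.80 ± 0.96 (adjusted p = 0.00398) on day 1 and 4.13 ± 0.96 (adjusted p = 0.00183) on day 5 against baseline. Within single batches the day 1 rise missed the threshold (3.02, adjusted p = 0.0503 in batch 1 and 4.95, adjusted p = 0.0572 in batch 2, by limma). It fell by 3.17 ± 0.92 (adjusted p = 0.00606) in brain from blood day 5 and by 2.84 ± 0.92 (adjusted p = 0.0123) from blood day 1. With batch 2 alone these falls had adjusted p = 0.163 and 0.231, and brain against baseline gave 0.96 ± 0.96 (adjusted p = 0.441), not called. Mean per-kilobase levels of Itgae in blood, 85.5 and 107, were far under the 11635 and 9145 of its partner chain Itgb7.

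Itga1, the CD49a collagen receptor chain, was the member that fell in blood. Baseline libraries had 1251, 1107, 1146, 1624 and 4469, replicate 5 being the high one. Its lowest, median and highest values were 0, 263 and 499.6 in blood on day 1, where replicate 6 had no read and replicate 2 had 9.29, and 107, 200.1 and 351 on day 5. All blood values lay below all baseline values. By limma the log2 difference was -4.54 ± 1.13 (adjusted p = 0.00342) on day 1 and -3.07 ± 1.13 (adjusted p = 0.0419) on day 5. The day 1 call was lost with only the 2 groups in the fit (0.0563) and within either batch (0.0528 and 0.061). The day 5 call was lost without any one of 10 of the 11 libraries, the exception being blood day 5 replicate 3 (adjusted p from 0.0553 to 0.111), and in 6 of 14 alternatives.

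In brain, Itga1 was at 790.2, 193, 718, 518, 543 and 380.1, between the groups and overlapping blood. Against baseline it differed by -1.77 ± 1.13 (adjusted p = 0.21) in limma, not called, although the groups did not overlap and edgeR (0.032) and DESeq2 (0.0464) called it lower. It rose against blood day 1, by 2.78 ± 1.07 (adjusted p = 0.0345), a call lost in 8 of 14 alternatives, edgeR among them (0.72, adjusted p = 0.477). The call was also lost without any one of blood day 1 replicates 2 and 6 or brain replicates 1, 3, 4 and 5 (adjusted p from 0.0553 to 0.0946), with a difference of 1.49 without replicate 6. Against blood day 5 the difference was 1.30 ± 1.07 (adjusted p = 0.345), not called.

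Itga2, the CD49b collagen receptor chain of platelets and NK cells, was even in culture, scattered in blood and low in brain. Baseline libraries had 255, 237, 257, 192 and 319.9. The lowest, median and highest values were 177, 618 and 6300.5 in blood on day 1 and 186, 828 and 1362 on day 5, overlapping the baseline. Brain had 18.7, 1.7, 58.5, 0, 122 and 15.6, below every library of the other groups. The limma log2 difference of brain was -4.19 ± 1.00 (adjusted p = 0.00113) against baseline, -5.61 ± 0.95 (adjusted p = 2.90e-05) against blood day 5 and -5.78 ± 0.95 (adjusted p = 2.04e-05) against blood day 1. Blood differed from baseline by 1.58 ± 1.00 (adjusted p = 0.24) on day 1 and 1.42 ± 1.00 (adjusted p = 0.315) on day 5, not called. The highest day 1 value was that of replicate 2, whose Itgb1 and Itgb2 were also the highest of the group, and the mean of Itga2 was 1517 with it and 561 without it. That library held platelet markers at 5.33% of the normalized total, against 0.327 to 0.782% in the other 5, with Itga2b, the platelet alpha chain, at 594201, and the part of platelets in these values was not tested.

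Ratios of 2 chains within a library depend little on how libraries are scaled where both chains are far above the pseudocount of 1. They do depend on it where only 1 chain is near 0, as Itgam is in the baseline and in batch 1 brain libraries. The log2 ratio of Itgb7 to Itgb1 was 0.24 ± 1.03 (SD, n = 5) in the baseline, 1.01 ± 1.49 and 0.79 ± 0.67 in blood on days 1 and 5, and -5.31 ± 0.74 in brain (SD, n = 6 each). The difference of brain, averaged over batches, was -5.60 from the baseline, -6.10 from blood day 5 and -6.31 from blood day 1. Each had an exact two-sided permutation p of 0.005, labels permuted within batch, the smallest this design allows, and 0.015 after adjustment over 18 such tests. The log2 ratio of Itgam to Itgal was higher than in the baseline by 11.69 in blood on day 1, 12.60 on day 5 and 12.99 in brain, each with the same exact permutation p and adjusted p. The pseudocount of 1 sets the size of these 3 differences, because baseline Itgam is at 0. In brain the ratio ran from -7.82 to 5.46, with an SD of 6.01. The batch 1 brain libraries had 1 Itgam read in all, so their higher ratio comes from lower Itgal, at -7.81 against baseline in that batch. The ratio of Itgae to Itga4 was not called in any comparison. Its smallest adjusted p was 0.0643, for a difference of -2.95 between blood day 5 and baseline (exact permutation p = 0.025).

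**Figure D4:**
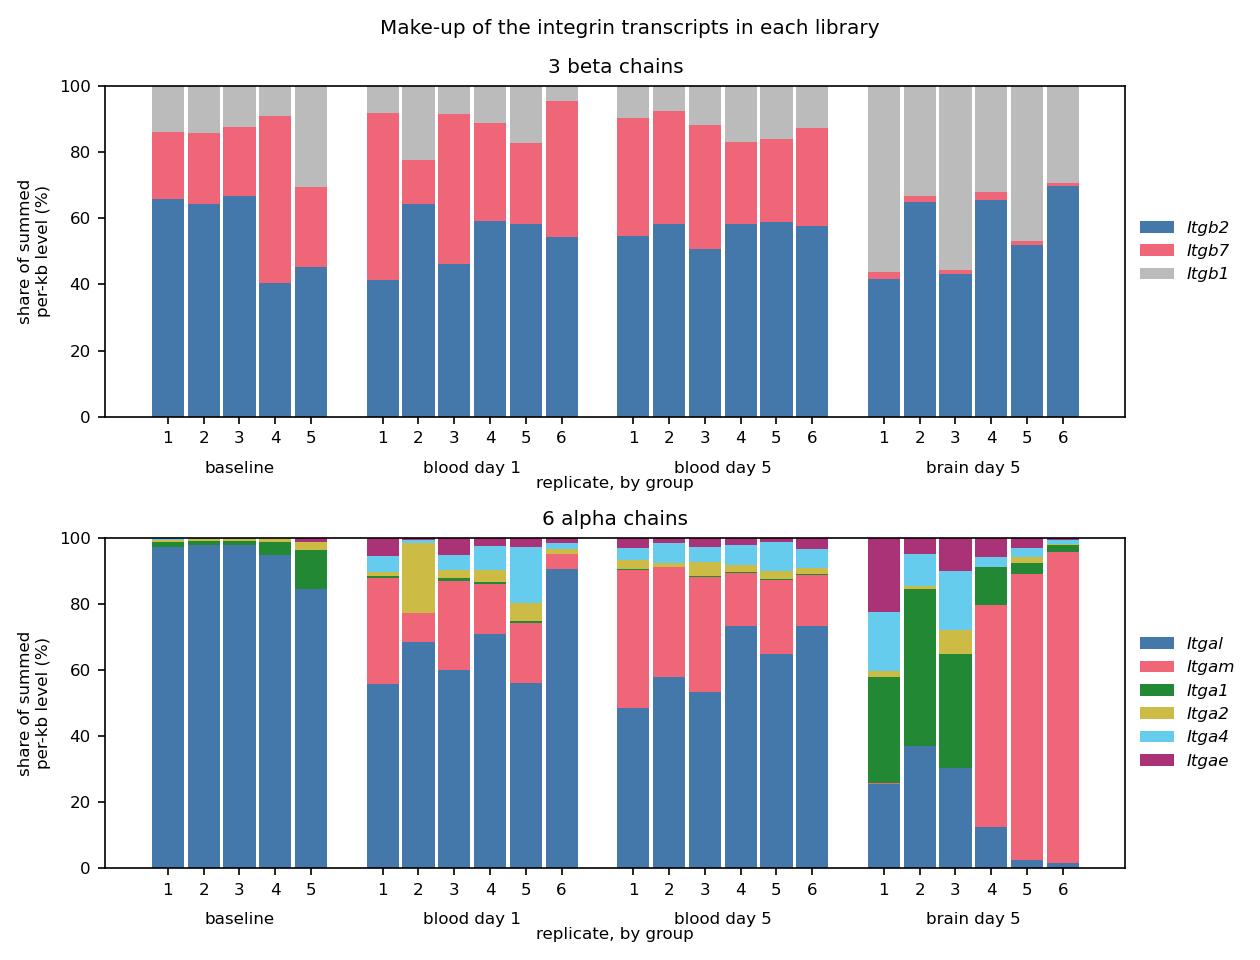
Share of each chain in the summed per-kilobase level of the 3 beta chains (top) and of the 6 alpha chains (bottom), as stacked bars from 0 to 100% for every library, by group and replicate. Itgb7 is 1.03 to 2.58% of the beta chains in the brain libraries, and Itgam is absent from the alpha chains in the baseline and is 67.0 to 94.0% of them in brain replicates 4 to 6.

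Among the beta chains the share of Itgb7 went from 27.4 ± 13.0% (SD, n = 5) in the baseline to 1.59 ± 0.61% (SD, n = 6) in brain, and that of Itgb1 from 16.0 ± 8.33% to 42.2 ± 12.3%. Itgam took 17.6 ± 10.4% and 27.3 ± 10.8% of the alpha chains in blood on days 1 and 5. Itga1 took 3.97 ± 4.62% in the baseline and at most 1.10% in any blood library. In the batch 1 brain libraries Itga1 had a mean share of 37.9% and Itgal 30.9%, whereas in batch 2 Itgam had 82.5%. The summed per-kilobase level was 391 ± 415 (SD, n = 6) for the alpha chains in brain, against 3755 ± 1519 (SD, n = 5) in the baseline, and 4413 ± 911 against 29586 ± 8743 for the beta chains.

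Ptprc, the pan-leukocyte gene for CD45, was lower in brain as well, at 700.4 to 2785 against 12050.0 to 19947 in the baseline. Its limma log2 difference against baseline was -3.49 ± 0.36 (adjusted p = 2.35e-08). That was smaller in size than those of Itgal (-7.25), Itgb7 (-6.80) and Itga2 (-4.19), and larger than those of Itgb2 (-2.73) and Itgb1 (-1.25). All 9 T cell and all 8 NK cell markers tested fell from blood day 5 to brain, while 7 of 8 microglia markers rose. Of all genes 14.3% fell and 33.6% rose there. From baseline to brain, 6 of the 9 T cell markers fell and 2 rose. Of the 8 NK cell markers 4 fell and 0 rose, and 7 of 8 microglia markers rose. In that comparison 11.7% of all genes fell and 37.5% rose. The part of these cell types in the integrin results was not tested.

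Across the 23 libraries, with batch means removed, the correlations between members are a description of libraries that share groups and batches. Itgal, Itgb2 and Itgb7 followed each other (Pearson r = 0.937 to 0.948), and Itga4 followed Itgae (0.878) and Itgam (0.787). Itga1 had an r of -0.508 (with Itgam) to 0.017 (with Itgb1) with the other members. By the same r, the most alike genes were S1pr4 for Itgal (0.990), Ctsw for Itgb7 (0.991), Unc13d for Itgb2 (0.970) and Mllt3 for Itgb1 (0.917). For further alpha chains they were Fcer1a for Itgam (0.950), Eprs for Itga1 (0.967), Cd44 for Itga2 (0.918) and BC035044 for Itgae (0.865).

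Of 33 tested genes of activation and adaptors, 14 rose and 3 fell in blood on day 1 and 15 and 2 on day 5, against baseline. Of all genes 18.1% rose and 14.0% fell on day 1 and 19.6% and 11.4% on day 5. Skap1, an adaptor of the LFA-1 pathway in lymphocytes, rose from a mean of 12.2 to 9027 on day 1 (9.58 ± 0.42, adjusted p = 3.18e-13 in limma). Vcl, which encodes vinculin, rose by 3.79 ± 0.72. Rasgrp1, an activator of Ras, fell by 1.84 ± 0.36. From blood day 5 to brain 20 of the 33 fell and 4 rose, where 14.3% of all genes fell and 33.6% rose, with Skap1 at -9.02 ± 0.40, Rasgrp2, the activator of Rap1, at -4.59 ± 0.41 and Fermt2, the kindlin of most non-blood cells, at 7.60 ± 0.82. From baseline to brain 12 fell and 8 rose, where 11.7% of all genes fell and 37.5% rose.

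Most of the other integrin chains were higher in brain. Of 15 tested, 11 rose and 1 fell from baseline to brain, and 8 rose and 2 fell from blood day 5, where 37.5% and 33.6% of all genes rose and 11.7% and 14.3% fell. Their median log2 difference was 4.47 and 2.87, against 0.67 and 0.47 for all genes. Itgb8, which encodes a chain that activates TGF-beta, rose by 8.29 ± 1.17 from baseline, and Itgb5, a vitronectin receptor chain, by 9.78 ± 0.76. Itgb3 fell by 3.64 ± 0.58. Against baseline, 4 rose and 2 fell in blood on day 1 and 5 and 1 on day 5, where 18.1% and 19.6% of all genes rose and 14.0% and 11.4% fell. There, Itga2b rose by 7.93 ± 0.87 on day 1 and Itga5, the fibronectin receptor chain, by 5.29 ± 0.70, and Itgav fell by 3.76 ± 0.99. Itga2b is itself a platelet marker, and the part of platelets in its rise was not tested.

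Ligands of these receptors were in the same libraries. Of 19 tested ligand genes, 6 rose and 5 fell in blood on day 1, 5 rose and 3 fell on day 5, and 14 rose and 2 fell in brain, against baseline. In these comparisons 18.1%, 19.6% and 37.5% of all genes rose and 14.0%, 11.4% and 11.7% fell. Cdh1, which encodes E-cadherin, the ligand of the CD103 integrin, had a mean of 8872 in culture and 238 in blood on day 1 (-6.61 ± 1.48, adjusted p = 0.00142 in limma). Icam2, a ligand of LFA-1, rose by 7.17 ± 0.78 and Vcam1, the ligand of VLA-4, by 5.66 ± 0.82. Spp1, which encodes osteopontin, fell by 7.57 ± 0.69. In brain the largest rises were the collagen genes Col1a1 (12.78 ± 1.46) and Col1a2 (12.43 ± 1.10), ligands of the Itga1 and Itga2 receptors and textbook products of fibroblasts.

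Of 9 genes of selectins and rolling, 2 rose and 3 fell in blood on day 1, where 18.1% of all genes rose and 14.0% fell. Fut7, a fucosyltransferase that makes selectin ligands, fell by 2.80 ± 0.52. From blood day 5 to brain none rose and 4 fell, where 33.6% of all genes rose and 14.3% fell, with Cd44 at -2.92 ± 0.43. From blood day 1 to day 5, Jam3 (4.01 ± 0.77, adjusted p = 0.0305 in limma), of 19 ligand genes, was called, and no gene of the other 3 lists was.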

How the data were processed

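Poly-A RNA was sequenced in pairs of 150 bp, per the labels' protocols. The submitters' processing notes name fastp, HISAT2 2.0.5 and mm10. The counting tool, annotation and strand setting are not given in these sources. Values deposited as signal, which the authors call normalized counts, are read counts scaled by a library's own factor. Reads were recovered from them: 100% of values were whole within 0.1 read. The members and gene lists were chosen with earlier results of these data known.

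Testing took in 15268 of 19945 genes, those that reached 10 in 5 or more of the 23 libraries. Each normalized count had 1 added and was then put on the log2 scale. For low genes a difference on this scale can be smaller or larger than the ratio of the group means. Tests were two-sided and used limma 3.58.1 under R 4.3.3, with terms for group and batch, all 23 libraries, and eBayes with trend and robust settings. Adjusted p-values are those of Benjamini and Hochberg, called under 0.05. The interaction of group and batch was added after the values were seen. Levels of different genes are compared per kilobase of exon union (GENCODE M21). Chain ratios were tested by exact permutation within batch. All 9 members are named, with up to 3 of the largest called rises and falls per list (higher group mean 100 or more, same sign in both batches) and, for likeness, the genes of highest Pearson r; a few genes that this rule names are not reported here. Alternatives were pseudocounts of 0.5 and 5, no filter, equal library totals, edgeR 4.0.16 and DESeq2 1.42.0 on recovered reads, other models and subsets, and each library left out in turn. The limma fit was first checked on simulated data.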

Additional observations from a re-analysis of the deposited data

Results flagged for a closer look

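In 8 of 35 sets of a member in a group, 1 library lay far from the others by a test for single outliers. The test was run on normalized counts and not on log2 values, and each of the 8 was the highest value of its set. Its chance rate of about 1 in 20 holds for normally distributed values, so the 8 of 35 cannot be read against that rate. Baseline replicate 5 had 4469 normalized counts of Itga1 (others 1107 to 1624) and 40504 of Itgb1 (others 12466 to 16147). Blood day 1 replicate 2 had 6300.5 of Itga2 (others 177 to 966), 69677 of Itgb1 (others 7402 to 17629) and 149676 of Itgb2 (others 32663 to 68071), in the library with the most platelet RNA. Baseline replicate 1 had 316 of Itga4, where the others had at most 80.4, and baseline replicate 4 had 61106 of Itgb7, where the others had 13155 to 21932. Brain replicate 6 had 11064 of Itgb2, where the others had 6256 to 7151, and it also had the highest share of microglia markers (1.22%).

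Of 54 tests of a difference between the batches, 6 passed the limma threshold. The share of all tested genes that passed was not counted, so the 6 cannot be read as particular to the members. The Itga4 rise in blood was larger in batch 2 than in batch 1, by 6.24 on day 1 and 5.79 on day 5 (adjusted p = 0.0110 and 0.0187). The Itgb7 difference of blood day 5 from baseline changed by -2.21 from batch 1 to batch 2 (adjusted p = 0.0259). For Itgam in brain, batch 2 minus batch 1 was 10.74 against baseline, 11.39 against blood day 5 and 11.36 against blood day 1 (adjusted p = 7.01e-06, 8.83e-07 and 7.20e-07). Against blood the fall was that of batch 1, at -12.21 from day 5 and -10.92 from day 1. Batch 2 had -0.82 and 0.44. The part of sequencing depth in these batch differences was not tested.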

How the results depend on the processing

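The brain falls of Itgal, Itgb7, Itgb2 and Itga2 against each of the 3 other groups, and the blood rises of Itgam and Itga4 on both days, passed the threshold in all 14 alternatives and with every library left out. The number of members called moved by more than 1.5 times in 4 cases: 7 in place of 4 for blood day 5 against baseline with library quality weights, 4 in place of 7 for brain against baseline in batch 1, 2 in place of 4 for blood day 1 against baseline in batch 2, and 5 in place of 9 for brain against blood day 1 in batch 2. Batch 1 and batch 2 hold fewer libraries. Leaving out each library gave 4 to 5, 3 to 4 and 5 to 7 called members for blood day 1, blood day 5 and brain against baseline, 0 to 0 between the blood days, and 7 to 8 and 7 to 9 for brain against blood days 5 and 1. Over all genes, quality weights called 9921 and 9633 for blood days 1 and 5 against baseline where the reported fit called 4905 and 4748, batch 2 alone called 2677 for day 1, and between the blood days the count was 16, with 5 to 357 under the alternatives.

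Equal library totals moved the median of all genes by up to -0.39 (brain against blood day 5). With edgeR, which changes the model as well as the scaling, it moved by up to -0.57 (brain against blood day 1). The falls named above are larger than these shifts. With equal library totals Itga1 on blood day 5 and Itga4 in brain were not called against baseline.

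The replicate number is shared by groups but is not shown to pair libraries: same-numbered libraries had a median correlation of deviations of 0.014 (2 of 33 pairs over 0.1), and different-numbered ones -0.008. With the replicate number as a block, 4, 4, 5, 0, 7 and 8 members were called in place of 4, 4, 7, 0, 7 and 9, in the order blood day 1, blood day 5 and brain against baseline, blood day 5 against day 1, and brain against blood day 5 and day 1. Under the block Itgb2 on blood day 5 against baseline was at -0.0279.

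All but 1 of the differences that changed sign were not called. The exception was Itgam in brain against blood day 1, at 0.44 in batch 2. The cause was not tested. In batch 2 Itgal was at 0.32 and 0.85 and Itgb7 at -0.48 and -0.99 in blood on days 1 and 5 against baseline, Itgb2 at -0.13 on day 5, and, between the blood days, Itga2 at 0.0272 and Itgb1 at 0.41. In batch 1 Itgb1 was at 0.55 in blood on day 1 and Itgae at -0.34 in brain, against baseline. Equal library totals gave Itgal 0.012 and Itgb1 0.0693 on day 5 against baseline, and Itga2 0.0913, Itgb1 0.15 and Itgb2 0.0325 between the blood days. On day 1 against baseline Itgb1 was at 0.12 by edgeR and 0.10 by DESeq2, and Itga1 between the blood days at -0.18 and -0.14. Quality weights gave Itgb2 -0.12 on day 1 and Itgb1 0.0518 on day 5 against baseline, and Itga1 -0.67, Itga2 0.83, Itgb1 0.27 and Itgb2 0.22 between the blood days. Averaging the close libraries (baseline replicates 1 to 3, brain replicates 1 and 3) gave Itgal 0.0609, Itgb2 -0.00358 and Itgb7 -0.15 on day 5 against baseline. Without the 4 libraries that stood apart Itgb2 was at -0.21 on day 1, Itgb1 at 0.00631 and Itgb2 at -0.025 on day 5 against baseline, and Itga1 -0.75, Itga2 0.50, Itgb1 0.18 and Itgb2 0.18 between the blood days. With single libraries left out, Itgb1 ranged from -0.67 to 0.17 and from -0.41 to 0.0646, and Itgb2 from -0.0547 to 0.43 and from -0.0356 to 0.0749, on days 1 and 5 against baseline. Between the blood days Itga2 ranged from -0.61 to 0.48, Itgb1 from -0.32 to 0.35 and Itgb2 from -0.40 to 0.0628, and Itgae in brain against baseline from -0.36 to 1.65.

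Among the ratios, batch 1 alone gave 0.49 for Itgb7 to Itgb1 between the blood days, -5.68 and -4.59 for Itgam to Itgal in brain against blood days 5 and 1, and -0.45 for Itgae to Itga4 in brain against blood day 1. For Itgb7 to Itgb1 on blood day 5 against baseline it was -0.29 in batch 2 and -0.20 without the 4 libraries. With single libraries left out that ratio ranged from -0.20 to 1.20, and between the blood days from -0.76 to 0.17. The floor of 3 reads in the baseline is a mean of 4.02 normalized counts. Itgam apart, members without a read were Itga4 and Itgae in baseline replicate 4, Itga2 in brain replicate 4 and Itga1 in blood day 1 replicate 6. These libraries belong to batch 2, which has the deeper libraries.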

Other observations

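The ratio of the summed alpha chains to the summed beta chains, per kilobase, was 0.144 ± 0.081 (SD, n = 5) in the baseline, 0.0894 ± 0.028 and 0.153 ± 0.0434 in blood on days 1 and 5, and 0.0862 ± 0.088 in brain (SD, n = 6 each). In brain it ran from 0.00668 to 0.209. Beta chain RNA therefore exceeded that of the 6 alpha chains in every group.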
